A study of Homo sapiens with 9 samples.

Results

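Expression of 44 genes of the hypoxia response and of glycolysis, out of 16366 genes in the table, was measured by RNA-seq in Cal-27 cells, a human tongue squamous carcinoma line. They were taken by symbol from a list of 45, of which INSIG2P1 was not analysed here, and all 44 passed the filter on low counts that left 12470 genes to test. By role they fall into 4 oxygen sensors and hypoxia-inducible factor (HIF) subunits, 4 sugar and lactate transporters, 17 glycolytic enzymes, 5 regulatory kinases, 13 other hypoxia targets and EGFL7. The study has 3 groups of 3 libraries. Wild-type Cal-27 cells were kept for 48 h with exosomes of CAFs (the usual abbreviation for cancer-associated fibroblasts), with exosomes named hOMF in the treatment protocol and hMOF in the treatment label, an abbreviation left unexplained there, or as a normal control. All groups share the line and a high-glucose medium with serum, and neither the exosome dose nor the oxygen level is stated. Nothing says that the 3 libraries of a group came from separate cultures, so the p-values reflect variation among these libraries, possibly technical variation alone.

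In cells with enough oxygen, the EGLN prolyl hydroxylases mark the alpha subunits HIF1A and EPAS1 for degradation. In hypoxia the subunits escape this, pair with ARNT and bind DNA at a short core motif, and HIF1A is thus controlled mainly at the protein level. Its known targets include nearly every glycolytic enzyme, the glucose and lactate transporters, and genes of acid balance, vessel growth and mitophagy. Squamous carcinomas of the mouth are known for using much glucose and for making lactate also when oxygen is present.

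The core motif of HIF binding, ACGTG or GCGTG, was searched on both strands in the 250 bases before each RefSeq gene start (GRCh38.p14). Starts were found by symbol for 38 of the 44 genes, and windows of NDRG1, BNIP3L, VEGFA, SLC2A3, SLC16A1 and PFKFB2 were not analysed here. At least 1 motif lay before a start of 32 of the 38 genes (84.2%), against 47.4% of 27305 genes in the RefSeq table. The RefSeq genes were not limited to those tested here, and many of the 44 were listed as known HIF targets. The shares are therefore not of like sets. Counted by window, since a gene can have several starts, 42 of 69 windows of these genes held a motif (60.9%), against 43.2% of 35116 windows. The glycolytic enzymes had it in 14 of 17 genes and the other hypoxia targets in 9 of 10. The windows shown belong to LDHA, HK2 and PKM, whose RNA was among the most reduced of the enzymes in both exosome groups, and to PFKFB4, CA9 and ANGPTL4, which were lowest in the hOMF group. Motif letters are in capitals, and where CACGTG appears the motif is read on both strands over the same bases. Each window is given 5′ to 3′ along the gene's own strand and ends at the base before the start.
LDHA (chr11:18394313-18394562, plus strand): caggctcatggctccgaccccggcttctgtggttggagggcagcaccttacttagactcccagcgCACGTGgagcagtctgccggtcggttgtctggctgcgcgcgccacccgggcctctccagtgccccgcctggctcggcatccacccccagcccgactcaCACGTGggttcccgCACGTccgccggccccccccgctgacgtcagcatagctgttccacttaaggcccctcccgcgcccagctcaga
HK2 (chr2:74834920-74835169, plus strand): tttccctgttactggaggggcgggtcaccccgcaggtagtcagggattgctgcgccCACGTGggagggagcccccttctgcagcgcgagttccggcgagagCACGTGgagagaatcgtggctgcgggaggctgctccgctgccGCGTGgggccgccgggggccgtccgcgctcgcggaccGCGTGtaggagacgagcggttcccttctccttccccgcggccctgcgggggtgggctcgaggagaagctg
PKM (chr15:72231191-72231440, minus strand): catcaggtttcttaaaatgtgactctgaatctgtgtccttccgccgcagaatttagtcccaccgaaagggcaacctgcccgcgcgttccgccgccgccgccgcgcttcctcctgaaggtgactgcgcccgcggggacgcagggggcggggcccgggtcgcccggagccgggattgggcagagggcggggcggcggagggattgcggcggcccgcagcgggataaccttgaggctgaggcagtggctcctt
PFKFB4 (chr3:48556804-48557053, minus strand): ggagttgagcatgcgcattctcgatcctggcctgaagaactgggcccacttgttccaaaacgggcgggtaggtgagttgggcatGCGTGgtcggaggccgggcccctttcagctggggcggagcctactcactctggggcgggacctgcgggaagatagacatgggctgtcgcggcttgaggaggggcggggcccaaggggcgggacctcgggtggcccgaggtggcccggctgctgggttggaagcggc
CA9 (chr9:35673678-35673927, plus strand): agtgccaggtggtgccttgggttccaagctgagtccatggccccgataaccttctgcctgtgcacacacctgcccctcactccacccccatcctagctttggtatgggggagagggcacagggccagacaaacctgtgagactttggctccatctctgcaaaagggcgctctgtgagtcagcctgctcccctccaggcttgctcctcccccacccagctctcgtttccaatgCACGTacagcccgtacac
ANGPTL4 (chr19:8363905-8364154, plus strand): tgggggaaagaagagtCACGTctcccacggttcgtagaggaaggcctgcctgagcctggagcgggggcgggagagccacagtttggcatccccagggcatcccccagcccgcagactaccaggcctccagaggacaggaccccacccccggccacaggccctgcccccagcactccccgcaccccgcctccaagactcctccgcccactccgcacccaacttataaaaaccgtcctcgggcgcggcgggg
LDHA had 5 matches and HK2 6, PFKFB4, CA9 and ANGPTL4 had 1 each, and PKM had 0 in its window. Where a gene had several starts, the window with the most matches is shown. LDHA and HK2 each had a further window, with 1 and 3 matches. The CA9 match began 18 bases before the start, the nearest among the 6 genes. A match describes letters only, and none of the windows was tested for binding in these data.

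Both exosome groups had lower RNA of a part of these genes than the controls, and HIF1A RNA itself was higher. Values per library are CPM, counts divided by the library total and scaled by edgeR's TMM factors, and tests are edgeR's quasi-likelihood tests over all 12470 genes with Benjamini-Hochberg adjustment, called below 0.05. After CAF exosomes, 3 of the 44 genes rose and 10 fell (29.5% called), where 18.2% of all tested genes were called, 9.51% higher and 8.64% lower. With hOMF exosomes, 6 rose and 16 fell (50% called), where 23.2% of all tested genes were called, 11.8% higher and 11.4% lower. The median log2 fold change over the 44 genes was -0.11 after CAF exosomes and -0.17 after hOMF exosomes, and over all tested genes it was -0.01 and 0.00. The 44 genes were chosen with earlier results of these data known, so these shares and medians describe the list only. Both comparisons use the same 3 control libraries, so a high or low control moves both. All changes among the called genes lay between log2 -0.90 and 0.97. Abundant genes are called more easily, and 24 of the 44 had a mean of at least 100 TPM, a level per transcript length that sums to the same total in every library, a limit set after the levels were seen. Of these 24, 9 were called after CAF exosomes and 7 of them fell, where 21.2% of 1362 genes of such abundance were called and 11.8% fell. With hOMF exosomes 14 were called and 11 of them fell, where 24.2% of the 1362 were called and 16.5% fell. Left out singly, CAF exosome replicate 3 or control replicate 2 each reduced the genes that fell after CAF exosomes to 5, and CAF exosome replicate 1 to 6. Without hOMF exosome replicate 2, 10 genes fell and 2 rose in the hOMF group. In bulk libraries such as these, fewer cells of a type and less RNA per cell cannot be told apart.

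**Figure D1:**
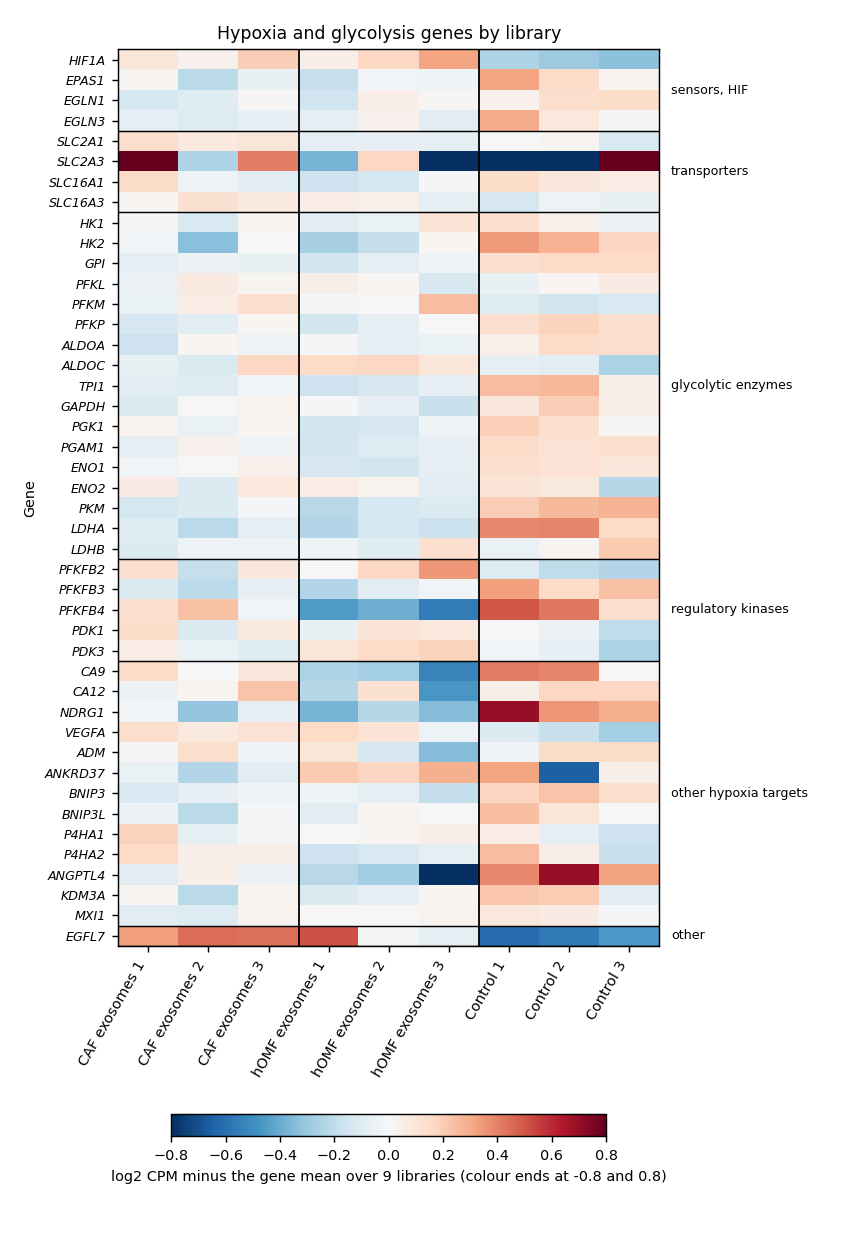
Each row is a gene and each column a library, grouped as CAF exosomes, hOMF exosomes and controls; colour is the log2 CPM minus that gene's mean over the 9 libraries, with colours ending at -0.8 and 0.8. Most glycolytic enzymes are warm in the 3 controls and pale or cool in the 6 exosome libraries, while HIF1A and EGFL7 show the opposite; SLC2A3 and ANKRD37 rest on few counts.

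The libraries held 11185672 to 12779101 expected counts. Replicates of a group differed by more than counting noise in every pair, with a chi-square per degree of freedom of 3.08 to 11.1. Of 10 squamous and keratinocyte markers, KRT17, KRT5, SFN and EPCAM were the most abundant. Others were low, with group means of 4.47 to 6.91 TPM for KRT6A, 10.1 to 23.1 TPM for KRT14 and 15.2 to 19.1 TPM for DSG3. The summed level of the 10 was 6230 to 6314 TPM in CAF exosome libraries and 5342 to 6018 TPM in hOMF exosome libraries. In controls it was 4167 to 5374 TPM. The 9 fibroblast markers measured summed to 15.37 to 15.81 TPM, 14.77 to 16.66 TPM and 10.9 to 12.53 TPM in the same order. COL1A1 made up most of this sum, at group means of 12.5, 12.5 and 10 TPM. LUM had means of 1.89, 1.77 and 0.867 TPM, COL1A2 0.757, 0.86 and 0.68 TPM and PDGFRB 0.333, 0.357 and 0.207 TPM. The means of these genes were higher in both exosome groups than in controls. COL3A1, DCN, THY1, FAP and POSTN had at most 2 counts in any library. Control replicate 3 stood apart on the first principal components, and it held 94 counts of the leukocyte gene PTPRC, against 0 or 1 in the other 8 libraries. Its counts of the leukocyte markers CD14, CD68, CSF1R and ITGAM were 74, 406, 89 and 41. Control replicate 1 had 42, 374, 105 and 36, and control replicate 2 had 73, 325, 88 and 35. Without control replicate 3, 12 genes of the 44 fell and 3 rose after CAF exosomes, and 17 fell and 2 rose with hOMF exosomes. The part of any of these markers in the results was not tested.

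Among the sensors and HIF subunits, HIF1A rose in both exosome groups. HIF1A, the oxygen-regulated alpha subunit, had 537, 514 and 574 CPM in the CAF exosome libraries, 519.6, 562 and 625 CPM in the hOMF exosome libraries and 423, 409 and 400.0 CPM in the controls. All 6 exosome libraries lay above all 3 controls, which spread over a narrow range. The log2 fold change was 0.40 (SE 0.08, adjusted p = 0.00262) with CAF exosomes and 0.47 (SE 0.08, adjusted p = 0.00053) with hOMF exosomes, by edgeR, and the call held under all 18 alternatives in each. Per length, HIF1A was at 220.5 ± 13.1 TPM in CAF exosome libraries, 236 ± 30.4 TPM in hOMF exosome libraries, 160.2 ± 4.70 TPM in controls (SD, n = 3 each). It had the highest mean TPM of the 4 over the 9 libraries, while in the controls alone EGLN3 stood above it, at 179 TPM. Exons of HIF1A overlap those of HIF1A-AS1 on the other strand and AL137129.1 on the same strand. Whether the authors counted by strand is not stated, and reads of a gene and its overlapping partner may therefore be mixed. The same limit holds for several enzymes. On the same strand, ALDOA shares 1636 exon bases with AC093512.2, LDHB 891 with AC010197.2 and GPI 349 with AC092073.1. On the other strand, GAPDH shares 422 with AC006064.4 and PFKM 413 with SENP1. Overlaps on the other strand were shorter for HK2, at 7 bases, and TPI1, at 14 bases.

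EPAS1, the other alpha subunit, differed in the other direction from HIF1A. It had 197, 167 and 186 CPM in the CAF exosome libraries, 171, 191 and 189 CPM in the hOMF exosome libraries and 241, 215 and 198 CPM in the controls, with all 6 exosome libraries below the controls, CAF exosome replicate 1 by little. It fell with hOMF exosomes, by a log2 change of -0.25 (SE 0.09, adjusted p = 0.045) in edgeR, but 12 of 18 alternatives did not call it. With CAF exosomes the log2 difference was -0.25 (SE 0.09, adjusted p = 0.0524), which did not pass in edgeR but did in DESeq2 (adjusted p = 0.0327) and in 4 other alternatives. The hydroxylase EGLN1 gave log2 differences of -0.18 and -0.14 with CAF and hOMF exosomes, and EGLN3, a hydroxylase that HIF itself induces, -0.21 and -0.17. Neither hydroxylase passed in edgeR in either comparison. With CAF exosomes, limma called EGLN1 lower at both pseudocounts (adjusted p = 0.0434 and 0.0416), and EGLN3 was called lower with the correction for GC content and length (adjusted p = 0.0309) and without control replicate 3 (adjusted p = 0.0346).

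No transporter passed the edgeR test against the controls, with 1 of 4 at an unadjusted p under 0.05 in each comparison. Of all 12470 tested genes, 4094 with CAF exosomes and 4575 with hOMF exosomes had such a p. DESeq2 called 0 of 4 transporters in each, and limma on log2(FPKM + 1) called SLC16A3 alone, with CAF exosomes. With the correction for GC content and length, SLC16A1 was called lower with hOMF exosomes (adjusted p = 0.00878), as it was in 2 fits with 1 library left out. SLC2A1, the main glucose importer of many carcinomas, was the most abundant, at 406 ± 19.7 TPM in CAF exosome libraries, 365 ± 13.2 TPM in hOMF exosome libraries, 354 ± 15.5 TPM in controls (SD, n = 3 each). It had 865, 828 and 842 CPM in the CAF exosome libraries, 747, 752 and 744 CPM in the hOMF exosome libraries and 787, 796 and 723 CPM in the controls. The CAF exosome libraries lay above all others, and the hOMF exosome libraries lay within the range of the controls. Its log2 difference was 0.14 (SE 0.07, adjusted p = 0.16) for CAF exosomes, -0.04 (SE 0.07, adjusted p = 0.692) for hOMF exosomes and 0.18 (SE 0.07, adjusted p = 0.535) for CAF against hOMF exosomes, by edgeR. SLC16A1, a lactate carrier, gave log2 differences of -0.09 and -0.20 against the controls with CAF and hOMF exosomes, and SLC16A3, the exporter that hypoxia induces, 0.15 and 0.09. SLC2A3, a neuronal-type glucose importer, had only 4 to 29 counts per library, and its 95% intervals reached from -0.78 to 1.73 and from -2.15 to 0.74.

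By summed TPM the glycolytic enzymes were the most abundant of these groups. After CAF exosomes 6 of 17 fell and 0 rose, and with hOMF exosomes 9 of 17 fell and 1 rose, by edgeR. Of all tested genes 8.64% fell and 9.51% rose with CAF exosomes, and 11.4% fell and 11.8% rose with hOMF exosomes, and of the genes with at least 100 TPM 11.8% and 16.5% fell. A higher enzyme was likewise not called with CAF exosomes by DESeq2 or limma. With CAF exosomes 8 of 17 had an unadjusted p under 0.05 in edgeR in either direction, as did 4094 of all 12470 tested genes. The median log2 difference over the 17 was -0.14 with CAF exosomes and -0.22 with hOMF exosomes. Summed over the 17 genes, the level was 27827, 28000.0 and 28817 TPM with CAF exosomes, 27081, 27999 and 28190.0 TPM with hOMF exosomes and 30439, 31548 and 29939 TPM in controls. The 6 exosome libraries all lay below the 3 controls in this sum. GAPDH and ALDOA, at means of 13050 and 4343 TPM over the 9 libraries, made up much of the sum, and edgeR called neither in either comparison. Libraries left out singly changed these counts: 3 enzymes fell after CAF exosomes without any 1 of the CAF exosome libraries, and likewise without control replicate 1 or 2. For the hOMF group, 4 fell without hOMF exosome replicate 2 and 5 without hOMF exosome replicate 1 or control replicate 2.

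LDHA, which turns pyruvate into lactate, changed most among the enzymes. It had 1920.3, 1769 and 1957 CPM in the CAF exosome libraries, 1745, 1864 and 1824 CPM in the hOMF exosome libraries and 2679.7, 2699 and 2299.9 CPM in the controls. The highest exosome library was below the lowest control, which was replicate 3. The log2 fold change was -0.44 (SE 0.08, adjusted p = 0.00128) with CAF exosomes and -0.50 (SE 0.08, adjusted p = 0.000318) with hOMF exosomes, by edgeR, and without control replicate 3 it was -0.51 and -0.57. LDHB, the subunit that favours the reverse reaction, gave log2 differences of -0.13 and -0.06 and passed in neither in edgeR.

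PKM, the pyruvate kinase whose gene makes the M1 and M2 forms, had 2561, 2611 and 2796 CPM in the CAF exosome libraries, 2421, 2563 and 2610.4 CPM in the hOMF exosome libraries and 3227, 3378 and 3416 CPM in the controls. Both exosome groups lay below the controls without overlap, by more than the spread within any group. PKM fell by a log2 change of -0.33 (SE 0.07, adjusted p = 0.00382) with CAF exosomes and -0.40 (SE 0.07, adjusted p = 0.00067) with hOMF exosomes, by edgeR. The table is by gene, so its splice forms were not separated.

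HK2, the inducible hexokinase that traps glucose in the cell, had 144, 116 and 147 CPM in the CAF exosome libraries, 121, 128 and 147 CPM in the hOMF exosome libraries and 185, 177 and 165 CPM in the controls. All exosome libraries were below all controls, although CAF exosome replicate 2 lay well under its group. HK2 fell by a log2 change of -0.38 (SE 0.09, adjusted p = 0.0128) with CAF exosomes and -0.41 (SE 0.09, adjusted p = 0.00615) with hOMF exosomes, by edgeR. The housekeeping form HK1 was more abundant per length, at a mean of 108 TPM over 9 libraries against 40.9 TPM for HK2, and gave log2 differences of -0.07 and -0.05 that did not pass in edgeR.

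TPI1, which interconverts the triose phosphates, had 1244, 1237 and 1301 CPM in the CAF exosome libraries, 1179, 1211 and 1265 CPM in the hOMF exosome libraries and 1568, 1593 and 1367 CPM in the controls. Control replicate 3 was the lowest control and still above every exosome library. TPI1 fell by a log2 change of -0.26 (SE 0.07, adjusted p = 0.0219) with CAF exosomes, a call that 7 of 18 alternatives lost, and -0.31 (SE 0.07, adjusted p = 0.0067) with hOMF exosomes, a call that held in all 18. GAPDH, the most abundant of all 44 and often used as a reference gene, averaged 13049.8 TPM, rank 3 in the table. It had 8212, 8921 and 9094 CPM in the CAF exosome libraries, 8830.1, 8516 and 7889 CPM in the hOMF exosome libraries and 9471, 10232 and 9253 CPM in the controls. Every exosome library lay below every control, but the log2 differences of -0.14 (SE 0.07, adjusted p = 0.188) with CAF exosomes and -0.20 (SE 0.07, adjusted p = 0.0604) with hOMF exosomes did not pass in edgeR. DESeq2 called GAPDH lower with hOMF exosomes (adjusted p = 0.0241), as did 3 other alternatives, and with CAF exosomes the correction for GC content and length did (adjusted p = 0.0477).

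Smaller changes were those of GPI, the glucose phosphate isomerase, and PFKP, the platelet-type phosphofructokinase. GPI fell by 0.21 with CAF exosomes and by 0.23 with hOMF exosomes on the log2 scale, and PFKP fell by 0.21 and by 0.22. After CAF exosomes these calls were lost under 12 of 18 alternatives each. With hOMF exosomes, PGK1, PGAM1 and ENO1, which act between the triose phosphates and phosphoenolpyruvate, also fell, with log2 changes of -0.22, -0.24 and -0.23. The PGK1 call was lost under 8 of 18 alternatives, that of ENO1 under 4 and that of PGAM1 under 3. Their log2 differences with CAF exosomes were -0.12, -0.16 and -0.10 and did not pass in edgeR, while PGAM1 was called by DESeq2 (adjusted p = 0.0414) and with the correction for GC content and length (adjusted p = 0.0396). ALDOC, a minor aldolase here, rose with hOMF exosomes, by 0.28 (SE 0.08, adjusted p = 0.0203) on the log2 scale in edgeR, and lost the call without hOMF exosome replicate 1 or 2 or control replicate 3. ALDOA, PFKL, PFKM, ENO2, HK1 and LDHB passed in neither comparison in edgeR, with log2 differences between -0.17 and 0.21. Of these, 4 alternatives called PFKM higher with hOMF exosomes (adjusted p = 0.0363 to 0.0497), and the correction for GC content and length called ALDOA lower with CAF exosomes (adjusted p = 0.0236) and with hOMF exosomes (adjusted p = 0.0477). GPI, ALDOA, PGAM1, PGK1 and PFKM had counts that were not whole in 7 or more of 9 libraries, as happens where RSEM divides reads between genes, and their values are less certain for it.

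Where an enzyme step has more than 1 gene, the genes were set against each other within each library as a ratio of TPM, for 6 pairs. The pairs and their direction were chosen with the fold changes known. Exons of HK1, HK2, PFKP, PFKM, ALDOA, ALDOC, ENO1 and LDHB overlap those of other genes, so mixed reads may enter the ratios. HK2 over HK1 was 0.365, 0.328 and 0.371 in CAF exosome libraries, 0.331, 0.34 and 0.35 in hOMF exosome libraries and 0.433, 0.44 and 0.436 in controls. PFKP over PFKM was 9.18, 8.98 and 8.84 in CAF exosome libraries, 9.03, 9.24 and 8.09 in hOMF exosome libraries and 11.3, 12.4 and 11.5 in controls. In both ratios all 6 exosome libraries lay below the controls. Against PFKL, the more abundant partner, PFKP was at 1.81, 1.75 and 1.89 in CAF exosome libraries, 1.70, 1.80 and 2.08 in hOMF exosome libraries and 2.16, 2.15 and 1.97 in controls. In that ratio the CAF exosome libraries were below the controls, and the hOMF exosome libraries overlapped them. LDHA over LDHB averaged 3.85 ± 0.267 in CAF exosome libraries, 3.55 ± 0.332 in hOMF exosome libraries and 4.93 ± 0.902 in controls (SD, n = 3 each), and the groups overlapped through control replicate 3, at 3.89. ALDOA over ALDOC averaged 12.4 ± 1.47, 11.3 ± 0.367 and 15.3 ± 1.44 in the same groups, and only the hOMF exosome libraries were clear of the controls. ENO1 over ENO2 averaged 39.1 ± 2.95, 36.1 ± 2.94 and 43.0 ± 5.07 in these groups, and again the CAF exosome libraries overlapped the controls. With 3 libraries a group, a two-sided exact permutation test cannot go below 0.1, and over 18 such tests of 6 ratios the smallest Benjamini-Hochberg value was 0.257, so none of the ratios passed.

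**Figure D2:**
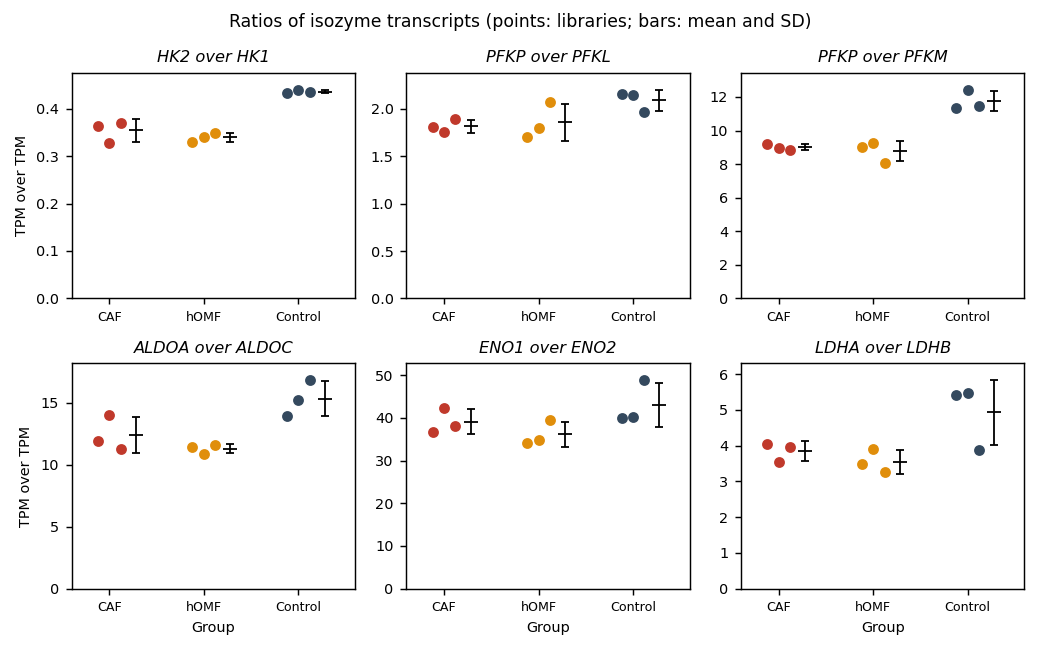
Each panel is 1 pair of isozyme genes; points are TPM ratios of single libraries in the CAF exosome, hOMF exosome and control groups, and bars are the group mean and SD. The ratios of HK2 over HK1 and PFKP over PFKM are lower in all 6 exosome libraries than in the controls; PFKP over PFKL overlaps the controls in the hOMF group, and LDHA over LDHB overlaps through 1 control at 3.89.

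The regulatory kinases split by gene. PFKFB3, PFKFB4 and PFKFB2 set the level of the fructose bisphosphate that activates phosphofructokinase, and PDK1 and PDK3 keep pyruvate out of mitochondria by inhibiting pyruvate dehydrogenase. PFKFB3 had 106, 98.7 and 109 CPM in the CAF exosome libraries, 97.0, 107 and 112 CPM in the hOMF exosome libraries and 143, 127 and 134 CPM in the controls, so that both exosome groups were below the controls with no overlap. It fell by a log2 change of -0.37 (SE 0.08, adjusted p = 0.00446) with CAF exosomes and -0.35 (SE 0.08, adjusted p = 0.00413) with hOMF exosomes, by edgeR. PFKFB4 had 24.9, 26.7 and 22.4 CPM in the CAF exosome libraries, 16.6, 17.3 and 15.4 CPM in the hOMF exosome libraries and 32.2, 30.4 and 25.1 CPM in the controls. The hOMF exosome libraries were below all 6 others, and the CAF exosome libraries overlapped the controls through control replicate 3. PFKFB4 fell with hOMF exosomes, by -0.83 (SE 0.11, adjusted p = 9.41e-05) on the log2 scale, and differed by -0.24 (SE 0.10, adjusted p = 0.116) with CAF exosomes, which did not pass in edgeR but did without control replicate 3 (log2 -0.35, adjusted p = 0.0398) and with the correction for GC content and length (adjusted p = 0.045). Its counts were not whole in all 9 libraries, so part of them rest on shared reads.

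PFKFB2, whose product is known mainly from heart, had 24.3, 19.6 and 23.7 CPM in the CAF exosome libraries, 22.2, 24.9 and 28.3 CPM in the hOMF exosome libraries and 20.6, 19.2 and 18.9 CPM in the controls. It rose with hOMF exosomes by 0.36 (SE 0.11, adjusted p = 0.0251) on the log2 scale, in edgeR, and 4 of 18 alternatives lost the call, each leaving out 1 library. PDK1, with the highest mean TPM of the 5 over the 9 libraries, although PFKFB3 was above it in the controls, had 124, 104 and 118 CPM in the CAF exosome libraries, 108, 120.2 and 119 CPM in the hOMF exosome libraries and 112, 108 and 97.3 CPM in the controls. The groups overlapped, and its log2 differences of 0.13 with CAF exosomes and 0.13 with hOMF exosomes did not pass in edgeR. PDK3 rose with hOMF exosomes by 0.26 (SE 0.08, adjusted p = 0.0316) on the log2 scale, in edgeR, a call that DESeq2 and 6 other alternatives did not make. With CAF exosomes PDK3 differed by 0.08, which did not pass in edgeR.

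Of the 13 other hypoxia targets, 1 rose and 3 fell with CAF exosomes, and 1 rose and 4 fell with hOMF exosomes, by edgeR. The shares of all tested genes were 9.51% higher and 8.64% lower with CAF exosomes, and 11.8% and 11.4% with hOMF exosomes. Their median log2 difference was -0.10 with CAF exosomes and -0.17 with hOMF exosomes. Summed over the 13 genes, the level was 2379.6, 2102.7 and 2220.2 TPM with CAF exosomes, 2080.2, 2184.5 and 2062.2 TPM with hOMF exosomes and 2533.8, 2297.1 and 2145.8 TPM in controls. In this sum the exosome and control libraries overlapped. VEGFA, which rose, and NDRG1, which fell, weighed most in it, at means of 649 and 464 TPM over all libraries. After CAF exosomes the 3 genes that fell became 1 when CAF exosome replicate 1 or 3, or control replicate 2, was left out.

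NDRG1, a stress-response gene and a sensitive marker of hypoxia, had 829, 677 and 802 CPM in the CAF exosome libraries, 649, 718 and 662 CPM in the hOMF exosome libraries and 1365, 1075 and 1028 CPM in the controls. All exosome libraries were below all controls, and control replicate 1 was the highest of the 9. NDRG1 fell by a log2 change of -0.59 (SE 0.10, adjusted p = 0.00134) with CAF exosomes and -0.77 (SE 0.10, adjusted p = 0.000101) with hOMF exosomes, by edgeR. ANGPTL4, a secreted inhibitor of lipoprotein lipase, had 19.7, 21.5 and 20.2 CPM in the CAF exosome libraries, 17.9, 17.2 and 11.8 CPM in the hOMF exosome libraries and 27.3, 34.0 and 26.2 CPM in the controls. Here too the exosome libraries lay below the controls, and hOMF exosome replicate 3 was the lowest. ANGPTL4 fell by -0.51 (SE 0.13, adjusted p = 0.0164) with CAF exosomes and -0.90 (SE 0.14, adjusted p = 0.000298) with hOMF exosomes on the log2 scale, by edgeR. With CAF exosomes 5 of 18 alternatives did not call it, including limma and the fits without CAF exosome replicate 1, CAF exosome replicate 3 or control replicate 2.

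CA9, the membrane carbonic anhydrase that handles the acid of glycolytic tumour cells, had 227, 205 and 217 CPM in the CAF exosome libraries, 173, 169 and 141 CPM in the hOMF exosome libraries and 272, 268 and 205 CPM in the controls. The hOMF exosome libraries lay below all others, while the CAF exosome libraries overlapped the controls through control replicate 3. CA9 fell with hOMF exosomes by -0.63 (SE 0.10, adjusted p = 0.000553) on the log2 scale, in edgeR. With CAF exosomes the log2 difference was -0.20 (SE 0.10, adjusted p = 0.189), which did not pass, and without control replicate 3 it was -0.32 (adjusted p = 0.0284). BNIP3, a receptor for mitophagy, fell by -0.25 (SE 0.07, adjusted p = 0.0189) with CAF exosomes and -0.28 (SE 0.07, adjusted p = 0.00821) with hOMF exosomes on the log2 scale, and the CAF exosome call was not made without CAF exosome replicate 1, CAF exosome replicate 3 or control replicate 2.

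VEGFA, the vascular growth factor, moved the other way. Over the 9 libraries it had the highest mean TPM of the 13, while in the controls alone NDRG1 was higher, at 601 TPM against 542 TPM. It had 1331, 1278 and 1310.0 CPM in the CAF exosome libraries, 1352, 1303 and 1175 CPM in the hOMF exosome libraries and 1121, 1068 and 1002 CPM in the controls. Both exosome groups were above the controls without overlap. VEGFA rose by 0.30 (SE 0.07, adjusted p = 0.0109) with CAF exosomes and 0.26 (SE 0.07, adjusted p = 0.016) with hOMF exosomes on the log2 scale, by edgeR. The hOMF exosome call was lost without hOMF exosome replicate 1 or 2 or control replicate 3. Exons of VEGFA overlap those of the antisense gene AL136131.3.

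The other 8 targets passed in neither comparison in edgeR. They were ADM, a vasodilator peptide, BNIP3L, a second mitophagy receptor, P4HA1 and P4HA2, which hydroxylate collagen, KDM3A, a histone demethylase, MXI1, an antagonist of MYC, the carbonic anhydrase CA12 and the ankyrin-repeat gene ANKRD37. Of these, BNIP3L gave the lowest log2 difference with CAF exosomes, -0.21, and CA12 the lowest with hOMF exosomes, -0.34. CA12 had 16 to 25 counts per library and ANKRD37 15 to 36, so their differences are poorly measured, with 95% intervals of -0.90 to 0.23 and -0.27 to 0.83 against the controls for hOMF exosomes. Of the 8, P4HA1 alone was above 0 in both comparisons, at 0.10 and 0.08, without passing. With the correction for GC content and length, BNIP3L was called lower with CAF exosomes, and BNIP3L, ADM and KDM3A with hOMF exosomes (adjusted p = 0.0136 to 0.0391).

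**Figure D3:**
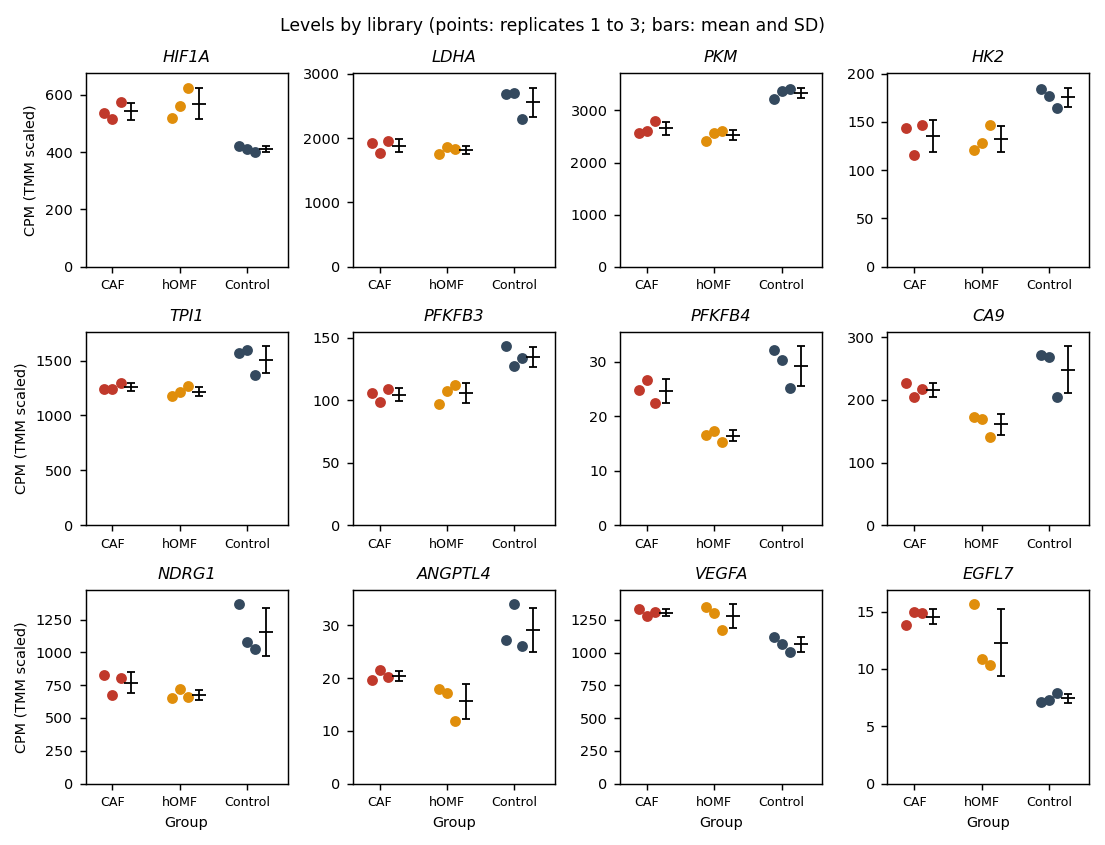
Each panel is a gene; points are the TMM-scaled CPM of replicates 1 to 3 in the CAF exosome, hOMF exosome and control groups, and bars are the mean and SD, on axes that start at 0. LDHA, PKM, HK2, TPI1, PFKFB3, NDRG1 and ANGPTL4 are lower in all 6 exosome libraries than in the controls, HIF1A, VEGFA and EGFL7 are higher, and PFKFB4 and CA9 are lowest in the hOMF group.

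Set side by side, the enzymes and the other targets had medians of like size. The enzymes stood at -0.14 and the other targets at -0.10 with CAF exosomes, and at -0.22 and -0.17 with hOMF exosomes. Under all 18 alternatives both medians stayed below 0 in both comparisons, at -0.18 to -0.12 for the enzymes and -0.14 to -0.07 for the other targets with CAF exosomes, and at -0.24 to -0.15 and -0.27 to -0.10 with hOMF exosomes. Log2 differences of the enzymes ran from -0.44 to 0.17 with CAF exosomes and from -0.50 to 0.28 with hOMF exosomes. Those of the other targets ran from -0.59 to 0.30 and from -0.90 to 0.28. Single genes set the ends of these ranges, and the 0.28 of the other targets was ANKRD37, which rests on few counts. The groups did not overlap in 10 of 17 enzymes below the controls and 1 above with CAF exosomes, and in 4 of 13 other targets below and 1 above. With hOMF exosomes the counts were 11 below and 2 above for the enzymes, and 4 below and 1 above for the other targets. Among all tested genes such separation occurred in 36.2% with CAF exosomes (18% above, 18.2% below) and 39.5% with hOMF exosomes (20.2% above, 19.3% below). The difference between these gene groups was not tested, since the genes of a group are not replicates.

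EGFL7, a secreted protein known mainly from endothelium, showed the largest rise of the 44 genes. It had 13.8, 15.0 and 14.9 CPM in the CAF exosome libraries, 15.6, 10.8 and 10.3 CPM in the hOMF exosome libraries and 7.09, 7.32 and 7.90 CPM in the controls. All exosome libraries exceeded all controls, and hOMF exosome replicate 1 stood above the other two of its group. EGFL7 rose by 0.97 (SE 0.15, adjusted p = 0.00057) with CAF exosomes and 0.71 (SE 0.15, adjusted p = 0.00383) with hOMF exosomes on the log2 scale, by edgeR. It rests on 78 to 180 counts per library. Of the 4 endothelial markers measured, whose summed level was 6.51 to 7.35 TPM in CAF exosome libraries, 6.71 to 7.71 TPM in hOMF exosome libraries and 8.05 to 11.24 TPM in controls, CDH5 made up most and fell, by -0.69 (SE 0.13, adjusted p = 0.00274) with CAF exosomes and -0.66 (SE 0.13, adjusted p = 0.00255) with hOMF exosomes on the log2 scale in edgeR. PECAM1 had 6 to 34 counts, VWF 14 to 44 and TEK 2 to 6 per library. With CAF exosomes, hOMF exosomes and in controls, PECAM1 averaged 0.293, 0.46 and 0.62 TPM. VWF and TEK went the other way, at 0.483, 0.477 and 0.28 TPM and at 0.177, 0.127 and 0.113 TPM. The part of these markers in the result was not tested.

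Between the exosome groups, 0 of the 44 genes passed the edgeR test of CAF against hOMF exosomes, where 2 of 12470 genes did (0.016%). At an unadjusted p under 0.05 in edgeR there were 6 of the 44, and 947 of all 12470 tested genes. DESeq2 called 2 of the 44, PFKFB4 and CA9, among 36 genes. PFKFB4 was higher with CAF exosomes by 0.59 (SE 0.11, adjusted p = 0.0948) on the log2 scale in edgeR, with a 95% interval of 0.35 to 0.82 and all 3 CAF exosome libraries above all 3 hOMF exosome libraries. It passed with a correction for GC content and length (adjusted p = 0.0325) and without control replicate 3 (adjusted p = 0.0369). The log2 difference of CA9 was 0.43 (SE 0.10, adjusted p = 0.276), with an interval of 0.21 to 0.65, and that of ANGPTL4 was 0.40 (SE 0.14, adjusted p = 0.51), with an interval of 0.10 to 0.70. SLC2A1, P4HA2 and PDK3 were the other 3 of the 6, at 0.18, 0.21 and -0.18. In 6 of the 44 genes every CAF exosome library was above every hOMF exosome library, and in 2 below, where 13.7% of all tested genes separated, 7.15% above and 6.59% below. For the enzymes the log2 differences ran from -0.14 to 0.13, with LDHA at 0.06 (95% interval -0.11 to 0.22) and PKM at 0.07 (-0.07 to 0.21). HIF1A differed by -0.07 (-0.23 to 0.09). These intervals bound the differences and do not show that the exosomes act alike.

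Neighbouring pathways were read from further lists of genes, which were chosen with earlier results of these data known. Among 22 tested genes of sugar and pyruvate metabolism outside the 44, 3 rose and 1 fell with CAF exosomes, and 4 rose and 2 fell with hOMF exosomes, with medians of -0.01 and 0.06 on the log2 scale. These are 18.2% and 27.3% called, near the 18.2% and 23.2% of all tested genes. PDP1, the phosphatase that reactivates pyruvate dehydrogenase, rose with hOMF exosomes, to 357 ± 31.4 CPM against 269 ± 7.00 CPM in controls (SD, n = 3 each; log2 change 0.41 (SE 0.07, adjusted p = 0.00129), edgeR), and its log2 difference with CAF exosomes was 0.12 (SE 0.07, adjusted p = 0.279). PGAM5, a mitochondrial phosphatase, fell by -0.31 (SE 0.09, adjusted p = 0.0234) and -0.42 (SE 0.09, adjusted p = 0.00316) on the log2 scale with CAF and hOMF exosomes, and limma and 3 of the fits with 1 library left out did not make the CAF exosome call. TIGAR, which lowers fructose bisphosphate, fell with hOMF exosomes by -0.65 (SE 0.16, adjusted p = 0.0083). PGAM2, the muscle phosphoglycerate mutase, had 1.60 ± 0.226 CPM with CAF exosomes, 2.21 ± 1.12 CPM with hOMF exosomes and 0.450 ± 0.333 CPM in controls (SD, n = 3 each), low levels at which it rose by 1.85 and 2.30 on the log2 scale.

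Of 7 tested genes read from the pentose phosphate pathway, 1 rose in each comparison and 0 fell. That is 14.3% called in each, below the 18.2% and 23.2% of all tested genes. An unadjusted p under 0.05 in edgeR was found for 1 and 2 of the 7, and for 4094 and 4575 of all 12470 tested genes. The gene that rose was PGD, a dehydrogenase that makes NADPH. PGD had 462 ± 8.36 CPM with CAF exosomes, 473 ± 26.1 CPM with hOMF exosomes and 384 ± 6.85 CPM in controls (SD, n = 3 each), a log2 change of 0.27 (SE 0.07, adjusted p = 0.012) and 0.30 (SE 0.07, adjusted p = 0.00436), by edgeR. None of 20 genes listed for the tricarboxylic acid cycle passed with CAF exosomes in edgeR, DESeq2 or limma (0 called by each). In edgeR 1 of the 20 had an unadjusted p under 0.05 there, and 4094 of all 12470 tested genes did. By edgeR 0% and 5% of the 20 were called with CAF and hOMF exosomes, below the 18.2% and 23.2% of all tested genes. IDH1, the cytosolic and not the mitochondrial isocitrate dehydrogenase, alone rose with hOMF exosomes, by 0.27 (SE 0.07, adjusted p = 0.015) on the log2 scale in edgeR. That call was lost without hOMF exosome replicate 2 or control replicate 3.

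Of 39 tested further genes of the hypoxia pathway, 3 rose and 9 fell with CAF exosomes (30.8% called), and 3 rose and 12 fell with hOMF exosomes (38.5% called), with medians of -0.07 and -0.08 on the log2 scale. Of all tested genes 18.2% and 23.2% were called, 8.64% and 11.4% lower. This list was chosen with earlier results of these data known, so its shares describe the list only. STC2, a secreted glycoprotein, had 484 ± 33.2 CPM with CAF exosomes, 394 ± 14.7 CPM with hOMF exosomes and 624 ± 4.09 CPM in controls (SD, n = 3 each). It fell by -0.37 (SE 0.07, adjusted p = 0.00232) and -0.66 (SE 0.07, adjusted p = 1.92e-05) on the log2 scale, by edgeR. EDN1, the vasoconstrictor endothelin, fell by -0.44 (SE 0.09, adjusted p = 0.00434) and -0.85 (SE 0.09, adjusted p = 2.76e-05). INSIG1, which restrains sterol synthesis, and DDIT4, an inhibitor of mTOR signalling, rose. INSIG1 changed by 0.65 (SE 0.08, adjusted p = 9.33e-05) with CAF exosomes and 0.67 (SE 0.08, adjusted p = 3.90e-05) with hOMF exosomes, and DDIT4 by 0.36 (SE 0.07, adjusted p = 0.00248) and 0.50 (SE 0.07, adjusted p = 0.000123), on the log2 scale.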

How the data were processed

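Poly(A)-selected, strand-marked RNA-seq libraries of Cal-27 cells were analysed in 3 groups of 3. Per the submitters' processing notes, Bowtie2 2.2.5 and RSEM 1.2.8 were used. The notes name the build mm10, while the gene IDs and symbols of the table are human, so the build is uncertain and no coordinates were taken from the files. Sequences and their coordinates are RefSeq's (GRCh38.p14), and exon overlaps are from GENCODE 29. The authors deposited expected counts, TPM and FPKM for each gene and library in 1 table, and no column lacked a sample; 90.54% to 91.97% of the expected counts were whole within 0.001. TPM served for levels between genes, and FPKM for an alternative test. The authors' deposited averages were not used.

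Expected counts were rounded and filtered with filterByExpr (at least 10 counts, total 15), which kept 12470 of 16366 genes. They were scaled by TMM factors and tested with edgeR 4.0.16 (quasi-likelihood, R 4.3.3) over all 9 libraries, with group as the term and Benjamini-Hochberg adjustment over 12470 genes; SE is the log2 fold change over the root of F, and 95% intervals use the test's degrees of freedom. The 18 alternatives were 2 other scalings (library totals without TMM, upper quartile), DESeq2 1.42.0, limma 3.58.1 on log2(FPKM + 1) and on log2(FPKM + 0.1), no filter, at least 30 counts in 3 libraries, the replicate number as a block, a correction for GC content and length (known for 99.1% of genes), and each library left out in turn. Fold changes of limma are on the log2(FPKM + pseudocount) scale and understate changes of low genes. The edgeR script was tested on simulated data. Precision is limited by 3 libraries a group and by totals of 11185672 to 12779101 expected counts.

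The member genes and all lists were chosen with earlier results of these data known. Within each role, values per library are given for the gene with the highest mean TPM, for each called gene with a log2 change of at least 0.3 in size, and otherwise for the gene with the smallest p; EPAS1 and the isozyme ratios were added after their values were seen. Other called genes are given by fold change, and of each further list up to 4 called genes with the smallest p are named. Markers of squamous, fibroblast, endothelial, leukocyte and erythroid cells were read as summed TPM; KDR, PDGFRA, CD3E and the erythroid genes HBA1, HBA2 and HBB were not analysed here. The 5 leukocyte markers read summed to 44.37 to 52.26 TPM with CAF exosomes, 45.49 to 46.96 TPM with hOMF exosomes and 41.57 to 46.73 TPM in controls. Part of these further lists is not reported here.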

Additional observations from a re-analysis of the deposited data

How the results depend on the processing

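No fold change of the 44 genes turned round as a call under any of the 18 alternatives; of the single-gene results, 2230 kept their side of the threshold, 95 lost the call and 41 gained it. With CAF exosomes 8 of 13 calls held in all 18 (HIF1A, HK2, PKM, LDHA, PFKFB3, NDRG1, VEGFA and EGFL7), and with hOMF exosomes 12 of 22 did (HIF1A, HK2, TPI1, PKM, LDHA, PFKFB3, PFKFB4, CA9, NDRG1, BNIP3, ANGPTL4 and EGFL7). For CAF exosomes against control, leaving out 1 library gave 1343 to 2389 called genes (2264 with all) and 8 to 15 of the 44 (13 with all); the correction for GC content and length gave 20. The lowest counts, 1343 and 1389 genes with 8 of the 44 each, came without CAF exosome replicate 3 and without control replicate 2, and 1442 genes were called without control replicate 3. For hOMF exosomes against control the ranges were 1695 to 3096 genes (2896 with all) and 12 to 24 of the 44 (22 with all), lowest without hOMF exosome replicate 2. For CAF against hOMF exosomes the ranges were 0 to 8 genes and 0 to 1 of the 44; DESeq2 called 36 genes and 2 of the 44, the GC and length correction 20 and 1, and 0 genes were called without TMM factors or by limma with either pseudocount. Without these libraries fewer samples were tested; otherwise the cause was not tested. Of the called genes, 52.4% and 50.9% were higher with CAF and hOMF exosomes against control; without TMM factors 63.1% and 67.0% were, with upper-quartile factors 62.4% and 61.7%, by limma 64.0% and 68.7% (pseudocount 1) or 64.5% and 69.0% (0.1), and with the GC and length correction 42.3% and 40.6%.

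The replicate numbers did not pair the libraries: same-numbered libraries of different groups had correlations of their deviations of -0.15 to 0.14. With the replicate block, 2101 genes and 12 of the 44 were called with CAF exosomes, 2718 and 21 with hOMF exosomes, and 2 and 0 between the exosome groups. Depth limits SLC2A3, CA12 and ANKRD37, whose lowest libraries held 4, 16 and 15 counts.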
